A study of Mus musculus with 2 samples.

Results

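The platelet-derived growth factor (PDGF) family was described through its 4 ligand genes, *Pdgfa*, *Pdgfb*, *Pdgfc* and *Pdgfd*, and its 2 receptor genes, *Pdgfra* and *Pdgfrb*. The members were chosen by gene symbol, and each symbol matched 1 row of both count matrices, so that 6 of 33696 gene rows are described. PDGF ligands are secreted dimers that bind and pair receptor tyrosine kinases on nearby cells. PDGF-A and PDGF-C signal mainly through the alpha receptor of fibroblast-lineage cells, PDGF-B binds both receptors and is the endothelial signal that recruits pericytes and smooth muscle cells, and PDGF-D acts mainly through the beta receptor. PDGF-C and PDGF-D are secreted in a latent form and need proteolytic cleavage before they bind.

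Single-cell RNA sequencing was performed on abdominal aortas of male C57BL/6J mice aged 5 months, collected at day 28. The Control group received normal saline. The AngII+HS group received angiotensin II at 1500 ng/kg/min from subcutaneous pumps and drinking water with 0.9% NaCl and 0.2% KCl, a model of abdominal aortic aneurysm. Each group was 1 library, pooled from 5 mice per the series' design text, whereas the extraction notes speak of 1 control mouse and 2 treated mice. There was therefore no replicate error, and no test was made between the conditions. All intervals below are 95% intervals that cover counting error only.

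After filtering, 10269 Control cells with a median of 7274 unique molecular identifiers (UMIs) per cell and 19734 AngII+HS cells with a median of 3065.5 UMIs were retained, holding 75294050 and 80581691 UMIs. Of 26 clusters, 22 carried the markers of 12 cell types and 4 stayed unnamed. The makeup of the libraries differed: vascular smooth muscle cells (VSMCs) were 53.1% of the Control library and 4.50% of the AngII+HS library, macrophages 4.77% and 22.3%, fibroblasts 19.0% and 21.5%, and vascular endothelial cells (VECs) 8.16% and 6.10%. Levels are given as CPM (counts-per-million), a gene's UMIs scaled by the summed UMIs of a cell type in 1 library, and they are compared between cell types and libraries for 1 gene at a time. Summed T and B cells, which were taken to lack these genes, held no member above 14.4 CPM, and levels near theirs are read as background.

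In the GRCm39 assembly (GENCODE M39), *Pdgfa* (ENSMUSG00000025856) lies on the minus strand at chr5:138961758-138983435, and *Pdgfra* (ENSMUSG00000029231) lies on the plus strand of the same chromosome at chr5:75311994-75358876. *Pdgfb* (ENSMUSG00000000489) lies on the minus strand at chr15:79880009-79899181. *Pdgfc* (ENSMUSG00000028019) and *Pdgfd* (ENSMUSG00000032006) lie on the plus strands at chr3:80943668-81121473 and chr9:6168240-6379265. *Pdgfrb* (ENSMUSG00000024620) lies on chromosome 18. The UMIs are counted per whole gene, so they do not separate exons or isoforms.

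*Pdgfa*, the ligand that pairs with the alpha receptor, was above background in most non-lymphoid types. Among named types with at least 50 cells its level was highest in Schwann cells, the glia of peripheral nerves, at 306 CPM in Control (interval 258 to 360, 149 cells) and 313 CPM in AngII+HS (283 to 346, 449 cells). The log2 ratio of AngII+HS over Control was 0.03 (interval -0.25 to 0.32). In Control the order below Schwann cells was lymphatic endothelial cells (LECs) at 243 CPM, VSMCs at 221 CPM, macrophages at 167 CPM, VECs at 136 CPM and fibroblasts at 36.6 CPM. The intervals of Schwann cells and LECs overlapped, as did those of LECs and VSMCs, so neither order was resolved. The unnamed mural cluster led by *Pln* stood above all of these, at 429 and 521 CPM. In AngII+HS the VSMCs, at 304 CPM, overlapped with the Schwann cells, and fibroblasts stood at 95.4 CPM, above their Control level by a log2 ratio of 1.38 (1.22 to 1.55). VSMCs were higher in AngII+HS by 0.46 (0.39 to 0.53), whereas macrophages were lower in AngII+HS, at 105 against 167 CPM, a log2 ratio of -0.66 (-0.83 to -0.50). T and B cells together held 8.62 CPM in Control and 14.4 CPM in AngII+HS.

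*Pdgfb*, the ligand through which endothelium attracts mural cells, had a narrower range of sources. VECs held 97.7 CPM in Control (88.6 to 107) and 164 CPM in AngII+HS (155 to 175), a log2 ratio of 0.75 (0.59 to 0.92). Macrophages held 82.4 CPM in Control (70.7 to 95.5) and 117 CPM in AngII+HS (112 to 122), a log2 ratio of 0.51 (0.29 to 0.74). With double the number of doublets removed, this ratio was 1.25 (1.02 to 1.48), and 480 Control and 1836 AngII+HS cells were then named macrophages. VECs and macrophages were the first and second named types in both libraries, and the VEC and macrophage intervals overlapped in Control but not in AngII+HS. Schwann cells at 85.5 CPM and dendritic cells (DCs) at 71.1 CPM followed in AngII+HS, with overlapping intervals. In Schwann cells the Control level was 40.4 CPM, from 19 UMIs. LECs were lower, at 23.5 and 22.3 CPM. VSMCs as a whole held 6.78 CPM in Control (6.10 to 7.51) and 21.0 CPM in AngII+HS. T and B cells held 8.62 CPM in Control and 9.14 CPM in AngII+HS. The Control level of T and B cells rested on 8 UMIs, all in T cells, so it does not place the VSMCs at background. In AngII+HS, T cells held 12.8 CPM (8.90 to 17.8) from 35 UMIs and B cells 4.58 CPM (2.19 to 8.41) from 10 UMIs. The summed level is therefore an uneven floor for *Pdgfb*. The summed level of the macrophage marker list in VSMCs also differed, at 11.7 CPM in Control and 71.9 CPM in AngII+HS, and its part in the *Pdgfb* difference was not tested. Fibroblasts held 0.992 CPM in Control (0.453 to 1.88) and 2.21 CPM in AngII+HS, below T and B cells and below VSMCs in both libraries.

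*Pdgfc*, a latent ligand of the alpha receptor, was highest, among named types, in VSMCs over both libraries and in macrophages in Control. The unnamed *Pln*-led mural cluster held 96.6 CPM in Control and 27.8 CPM in AngII+HS. VSMCs held 38.5 CPM in Control (36.8 to 40.1) and 109 CPM in AngII+HS (101 to 117), which was the largest ratio of a member in its leading cell type, a log2 ratio of 1.50 (1.38 to 1.63). Macrophages went the other way, with 77.2 CPM in Control (65.9 to 90.0) and 29.2 CPM in AngII+HS (26.8 to 31.8), a log2 ratio of -1.40 (-1.65 to -1.14). Fibroblasts held 26.3 and 26.9 CPM, and LECs held 23.5 CPM from 29 UMIs in Control and 5.88 CPM from 5 UMIs in AngII+HS. VECs held 7.85 and 4.36 CPM, with intervals that overlapped those of the 1.08 and 2.84 CPM of T and B cells.

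*Pdgfd*, the latent ligand of the beta receptor, was highest in VECs and VSMCs. VECs held 336 CPM in Control (319 to 354) and 262 CPM in AngII+HS (249 to 275), a log2 ratio of -0.36 (-0.46 to -0.26). VSMCs held 254 CPM (250 to 258) and 203 CPM (192 to 215), a log2 ratio of -0.32 (-0.40 to -0.24), and fibroblasts held 92.0 and 77.0 CPM, a log2 ratio of -0.26 (-0.37 to -0.14). VECs, VSMCs and fibroblasts thus followed each other in this order in both libraries without overlapping intervals, each lower in AngII+HS. Of the macrophages, DCs, T cells and B cells, none exceeded 8.97 CPM. All 3 differences depended on weighting. With VEC subclusters weighted as in Control, the VEC ratio was 0.14. With every cell given equal weight, the log2 ratio was 0.09 in VSMCs and 0.07 in fibroblasts. The VSMC ratio was -0.09 with double the number of doublets removed, when 2139 Control and 437 AngII+HS cells were named VSMCs. It was further from 0 with subclusters weighted as in Control, at -0.60, and with the stricter cell filter, at -0.56. Fibroblast subclusters differed both ways, from -1.31 in the one led by *Sfrp4* and *C4b* to 1.18 in the one led by *Rgs5* and *Notch3*. The fibroblast ratio was also 0.19 after thinning and 0.00 with double the number of doublets removed.

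*Pdgfra*, which encodes the alpha receptor, was far above background in fibroblasts. Fibroblasts held 439 CPM in Control (425 to 453, 1953 cells) and 230 CPM in AngII+HS (225 to 236, 4242 cells), a log2 ratio of -0.93 (-0.99 to -0.87). Among the other named types with at least 50 cells the highest level was 11.0 CPM, from 3 UMIs in Control neutrophils, and VSMCs held 5.45 and 4.94 CPM. An unnamed cluster of low depth led by *Rbp4* and *Igfbp6*, with fibroblast markers, held 536 and 247 CPM, a log2 ratio of -1.12 (-1.35 to -0.89). With each cell thinned to 1000 UMIs, 35.8% of Control fibroblasts and 19.6% of AngII+HS fibroblasts had a *Pdgfra* UMI, compared with 0% and 0.198% of T and B cells. Unthinned, the shares were 73.0% and 62.3% of fibroblasts and 0.437% and 0.907% of T and B cells. Median depths were 4210 and 5439 UMIs in fibroblasts and 3770 and 2130.5 UMIs in T and B cells, so the thinned shares are the ones to compare.

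*Pdgfrb*, which encodes the beta receptor, was shared by fibroblasts and mural cells. Fibroblasts held 179 CPM in Control (171 to 188) and 264 CPM in AngII+HS (258 to 270), a log2 ratio of 0.56 (0.48 to 0.64). VSMCs held 121 CPM (118 to 124) and 155 CPM (145 to 165), a log2 ratio of 0.35 (0.26 to 0.45). Among named types with at least 50 cells and unnamed clusters, the highest level belonged to an unnamed mural cluster led by *Pln*, *Notch3* and *Higd1b*, in which the VSMC and pericyte marker lists scored alike: 229 CPM in 175 Control cells and 500 CPM in 216 AngII+HS cells, a log2 ratio of 1.13 (0.93 to 1.33). In this cluster the summed pericyte list stood at 2469 CPM in Control and 5422 CPM in AngII+HS and the VSMC list at 29973 and 19614 CPM. Their part in the *Pdgfrb* difference was not tested. VECs held 32.1 and 32.3 CPM, above the 6.46 and 9.34 CPM of T and B cells. After thinning, 15.2% of Control fibroblasts and 23.1% of AngII+HS fibroblasts had a *Pdgfrb* UMI, compared with 0.442% and 1.19% of T and B cells. Unthinned, they were 43.1% and 66.2% of fibroblasts and 2.62% and 2.15% of T and B cells.

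**Figure D1:**
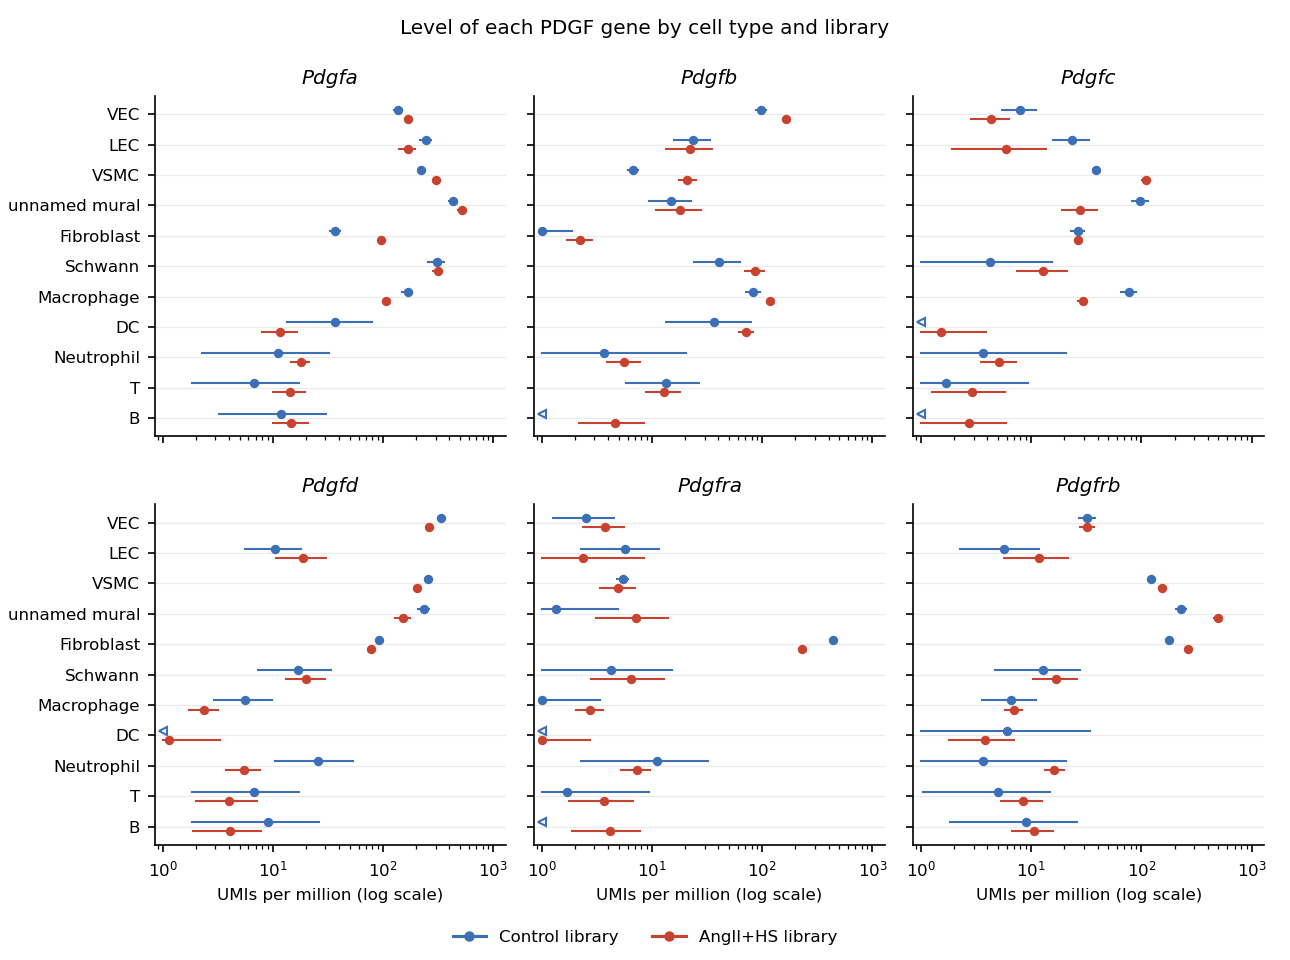
Level of each PDGF gene in CPM (log axis) by cell type, in the Control library (blue) and the AngII+HS library (red). Points are summed levels and bars their 95% Poisson intervals, values below 1 are drawn at 1, and open triangles mark 0 UMIs. *Pdgfra* stood out from background in fibroblasts, where the 2 libraries were 439 and 230, whereas *Pdgfa* was spread over most non-lymphoid types.

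The balance of the 2 receptors in fibroblasts differed between the libraries. In cells thinned to 1000 UMIs, *Pdgfra* without *Pdgfrb* was seen in 30.1% of 1876 Control fibroblasts and 14.9% of 4181 AngII+HS fibroblasts. *Pdgfrb* without *Pdgfra* was seen in 9.54% and 18.4%. Both receptors were seen in 5.65% (interval 4.65 to 6.79) and 4.66% (4.04 to 5.35), close to the 5.43% and 4.52% that the product of the single shares gives. Unthinned, both were seen in 34.5% (32.4 to 36.6) and 42.9% (41.4 to 44.4), somewhat above the products of 31.4% and 41.2%. Cells differ in depth when unthinned, and its part in this excess was not tested.

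**Figure D2:**
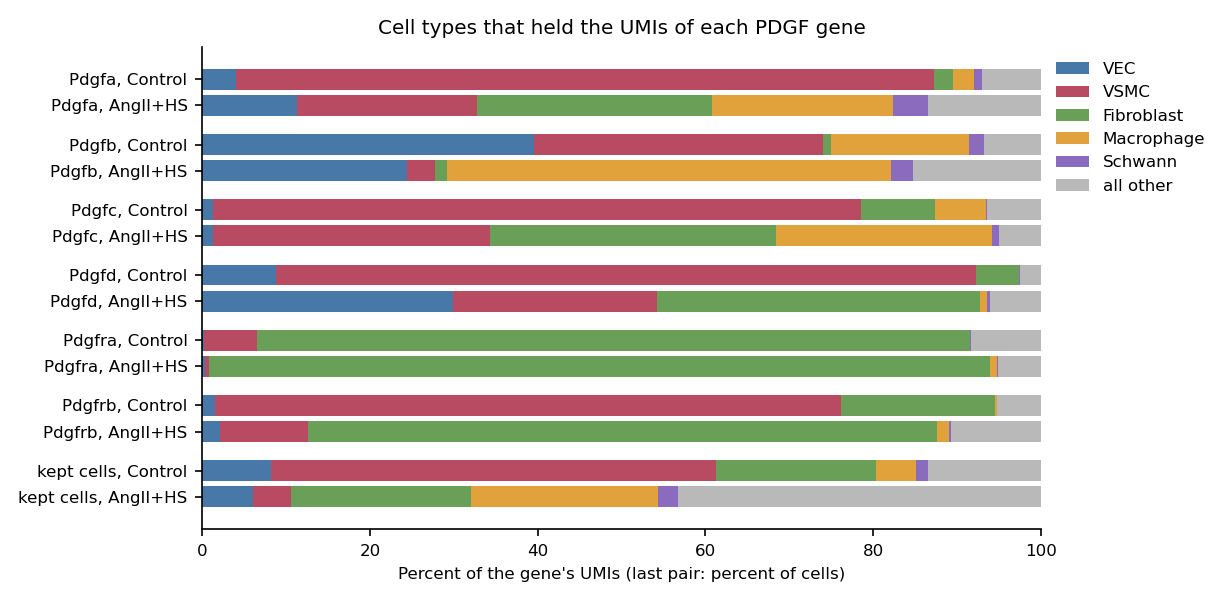
Percent of each gene's UMIs held by VECs, VSMCs, fibroblasts, macrophages, Schwann cells and all other cells in each library, with the percent of cells in the last pair of bars. The *Pdgfb* bar passed from mainly VECs and VSMCs in Control to 53.0% macrophages in AngII+HS. Control VSMCs as a whole held 6.78 CPM of *Pdgfb*, below the 14.2 CPM over all Control cells.

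The captured molecules of each gene came from different cell types in the libraries, as levels and cell numbers both differed. *Pdgfb* had 1068 UMIs in Control and 4160 in AngII+HS. In Control, VECs held 39.6% of them (36.7 to 42.6), VSMCs 34.5% and macrophages 16.5%, and in AngII+HS macrophages held 53.0% (51.4 to 54.5), VECs 24.5% and VSMCs 3.27%. The Control VSMC share came from 5455 cells that as a whole stood at 6.78 CPM, below the 14.2 CPM over all Control cells. The *Pdgfb* UMIs of Control VSMCs lay unevenly: the subcluster led by *Actn2* and *Emb* held 210 of them in 924 cells, at 20.2 CPM, and the other VSMC subclusters held 3.08 to 3.72 CPM. The UMIs of *Pdgfa*, *Pdgfc* and *Pdgfd* lay mostly in VSMCs in Control, where these cells held 83.2%, 77.2% and 83.5% of their UMIs. Over all Control cells these genes stood at 191, 35.9 and 220 CPM, beside 221, 38.5 and 254 CPM in VSMCs. The shares were thus above, but not far from, the VSMC share of all UMIs. In AngII+HS no type held more than 38.5% of any of these 3 ligands. *Pdgfa* was then divided among fibroblasts (28.1%), macrophages (21.5%), VSMCs (21.4%) and VECs (11.3%). *Pdgfc* was divided among fibroblasts (34.1%), VSMCs (33.1%) and macrophages (25.8%), and *Pdgfd* among fibroblasts (38.5%), VECs (29.9%) and VSMCs (24.3%). Over all AngII+HS cells *Pdgfa* and *Pdgfc* stood at 114 and 26.5 CPM. Fibroblasts held 95.4 and 26.9 CPM of them, macrophages 105 and 29.2 CPM, and VSMCs 304 and 109 CPM. The fibroblast and macrophage shares of *Pdgfa* and *Pdgfc* were thus near or below their shares of all UMIs, while the VSMC shares were above. *Pdgfd* stood at 67.3 CPM over all AngII+HS cells, beside 77.0 CPM in fibroblasts, 262 CPM in VECs and 203 CPM in VSMCs. Its fibroblast share was thus not far above their share of all UMIs, while its VEC and VSMC shares were well above theirs. *Pdgfb* stood at 51.6 CPM over all AngII+HS cells, beside 117 CPM in macrophages and 164 CPM in VECs. *Pdgfra* UMIs lay in fibroblasts in both libraries, at 85.0% and 93.1%. The unnamed low-depth cluster with fibroblast markers held another 8.09% in Control and 3.89% in AngII+HS. *Pdgfrb* UMIs lay mainly in VSMCs in Control (74.5%, with 18.4% in fibroblasts) and in fibroblasts in AngII+HS (75.0%, with 10.5% in VSMCs). Control VSMCs held 121 CPM beside 117 CPM over all Control cells, so their share was near their share of all UMIs. AngII+HS fibroblasts held 264 CPM beside 118 CPM over all AngII+HS cells. Over all cells, *Pdgfrb* was alike in the libraries, at a log2 ratio of 0.01 (-0.03 to 0.05), while *Pdgfb* was higher in AngII+HS by 1.86 (1.77 to 1.96) and *Pdgfd* was lower by 1.71 (log2 ratio -1.71, -1.75 to -1.66).

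**Figure D3:**
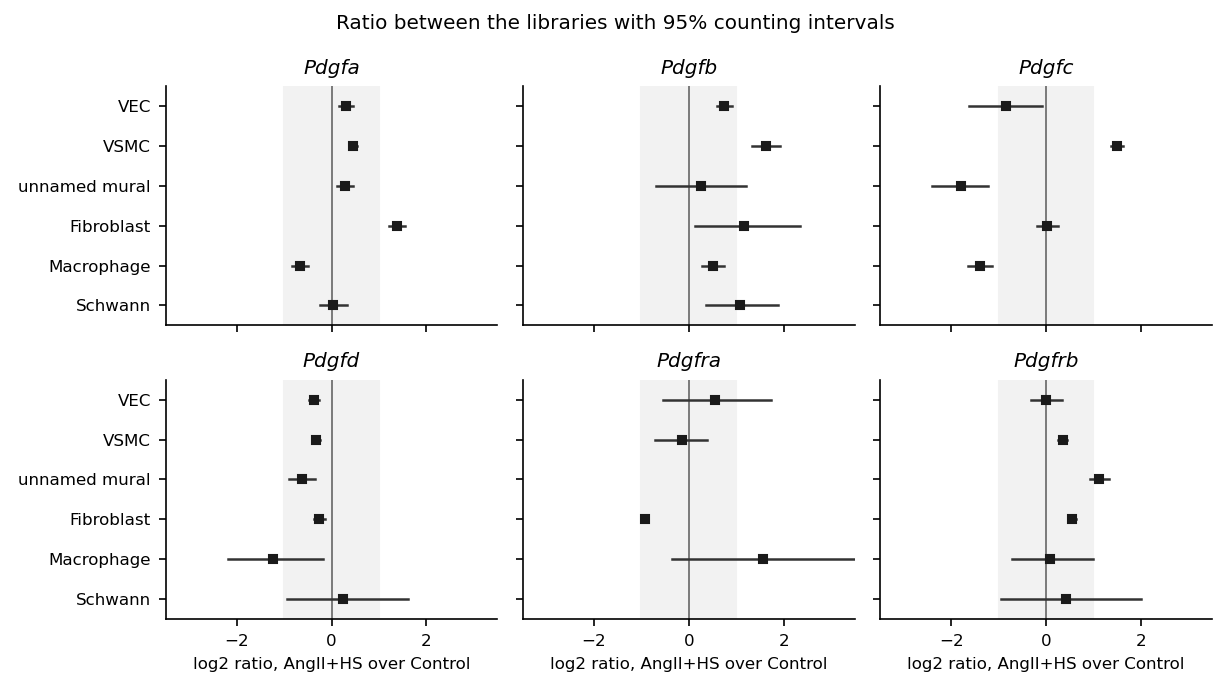
Log2 ratio of AngII+HS over Control for each gene in 6 cell groups, with 95% counting intervals. Grey bands mark ratios within 2-fold and groups with fewer than 20 UMIs or cells are left out. *Pdgfc* lay at 1.50 in VSMCs and at -1.40 in macrophages.

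The members were also counted by 2-fold differences within single cell types. In fibroblasts 2 of the 6 members, *Pdgfa* and *Pdgfb*, were at least 2-fold higher, compared with 7.86% of 15798 genes with at least 20 UMIs, and none was 2-fold lower, compared with 8.53% (16.4% in either direction). *Pdgfb* was at background in fibroblasts. In VSMCs 2 of 6, *Pdgfb* and *Pdgfc*, were at least 2-fold higher, compared with 6.21% of 15692 genes, and none was 2-fold lower, compared with 11.6% (17.8% in either direction). In VECs none of the 6 passed 2-fold, compared with 8.23% of 13153 genes higher and 5.99% lower (14.2% in either direction). In macrophages 2 of 6, *Pdgfc* and *Pdgfd*, were at least 2-fold lower, compared with 17.7% of 13559 genes, and 1 of 6, *Pdgfra*, was at least 2-fold higher, compared with 11.7% (29.4% in either direction). *Pdgfd* and *Pdgfra* were at background in macrophages, so *Pdgfc* was the member that passed 2-fold there above it. These counts rest on 6 members and were not tested against the background shares, so no conclusion is drawn from them.

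The endothelial ligands differed widely among VEC subclusters. *Pdgfd* was highest in arterial-like VECs led by *Ecrg4* and *Klk10*, at 567 CPM in 306 Control cells and 657 CPM in 199 AngII+HS cells. It was lower in capillary-like VECs, at 217 CPM in 142 cells and 148 CPM in 445 cells, and in venous-like VECs led by *Csf3* and *Ackr1*, at 71.2 CPM in 98 cells and 115 CPM in 252 cells. The capillary-like and *Csf3*-led venous-like cells made up more of the AngII+HS VECs. In the venous-like VECs led by *Adarb2*, with 69 Control and 89 AngII+HS cells, *Pdgfd* was 54.1 CPM (15 UMIs) and 162 CPM (38 UMIs). That was a log2 ratio of 1.58 (0.69 to 2.55). *Pdgfb* was 168 CPM in Control and 204 CPM in AngII+HS in capillary-like VECs, and 188 and 240 CPM in arterial-like VECs led by *Dkk2* and *Sema3g*. Apart from the small subcluster led by pericyte genes, the *Pdgfb* difference was largest in the *Csf3*-led venous-like VECs, from 79.5 CPM (48 UMIs) to 202 CPM (406 UMIs), a log2 ratio of 1.34 (0.91 to 1.81). With the subclusters weighted as in Control, the ratio of *Pdgfb* in VECs was 0.47. *Pdgfa* was highest in the *Dkk2*-led arterial-like VECs, at 325 and 426 CPM, and differed most in capillary-like VECs, from 27.5 to 104 CPM, a log2 ratio of 1.93 (1.22 to 2.72). In the *Klk10*-led VECs it was lower in AngII+HS, at 73.5 against 115 CPM.

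The *Pdgfrb* UMIs of VECs lay unevenly as well. A small subcluster led by pericyte genes, with 11 Control and 27 AngII+HS cells, held 250 and 272 CPM. The *Klk10*-led arterial-like VECs held 39.1 CPM in Control (47 UMIs) and 47.8 CPM in AngII+HS (41 UMIs), and the subcluster led by *Frzb* and *Sfrp1* held 45.7 and 49.8 CPM. In the *Klk10*-led cells the smooth muscle gene *Myh11* stood at 84.8 and 29.2 CPM and the pericyte gene *Rgs5* at 103 and 75.9 CPM. In the capillary-like VECs *Pdgfrb* was 6.11 and 4.51 CPM, *Myh11* 105 and 52.2 CPM and *Rgs5* 180 and 137 CPM. The fibroblast marker list scored second in the *Klk10*-led and the *Frzb*-led subclusters. The part of mural or fibroblast RNA in these *Pdgfrb* levels was not tested.

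**Figure D4:**
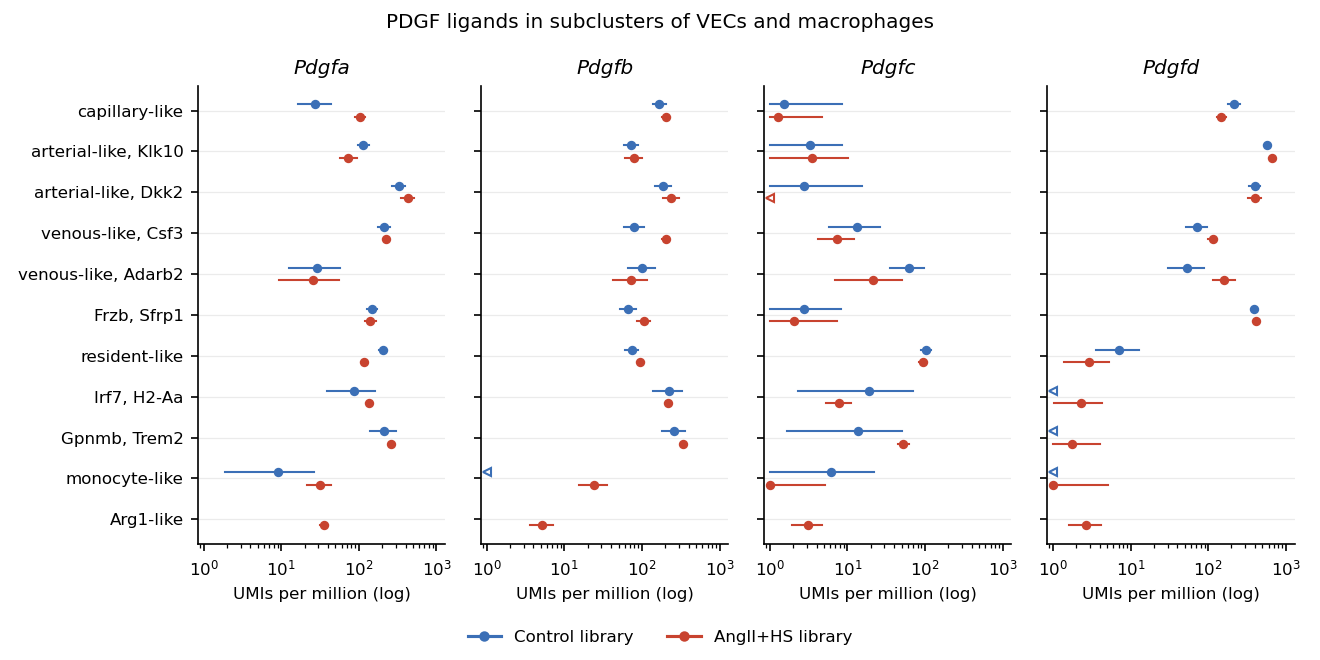
Level of the 4 PDGF ligands in CPM (log axis) in subclusters of VECs (upper 6) and macrophages (lower 5), Control library in blue and AngII+HS library in red, with 95% Poisson intervals. Values below 1 are drawn at 1, open triangles mark 0 UMIs, and the Arg1-like subcluster held no Control cell. *Pdgfd* reached 567 and 657 in arterial-like VECs, and *Pdgfb* 256 and 335 in the macrophages led by *Gpnmb* and *Trem2*.

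Among macrophages, *Pdgfb* was highest in a subcluster led by *Gpnmb* and *Trem2*, genes of lipid-handling macrophages, at 256 CPM in 50 Control cells and 335 CPM in 476 AngII+HS cells. *Pdgfb* was itself among the 10 leading genes of this subcluster, so its level there is a description. A subcluster led by *Irf7* and *H2-Aa* held 220 CPM in 29 Control cells and 214 CPM in 864 AngII+HS cells. Resident-like macrophages, with *Lyve1* and *Cd163*, held 74.2 CPM (344 cells) and 95.2 CPM (980 cells). Arg1-like macrophages, which were 1630 AngII+HS cells and no Control cell, held 5.18 CPM. This was below the 9.14 CPM of summed T and B cells and within the interval of B cells alone (2.19 to 8.41). *Pdgfa* was 204 CPM in Control and 117 CPM in AngII+HS in resident-like macrophages, a log2 ratio of -0.80 (-1.01 to -0.58), and 208 and 262 CPM in the *Gpnmb*-led macrophages. *Pdgfc* was highest, among macrophage subclusters with cells of both libraries, in the resident-like cells, at 103 CPM (159 UMIs) and 94.4 CPM (326 UMIs), a log2 ratio of -0.13 (-0.41 to 0.15). The Arg1-like, *Irf7*-led and monocyte-like cells of AngII+HS held 3.08, 7.82 and 0.923 CPM. The *Gpnmb*-led macrophages differed the other way, with 13.9 CPM (2 UMIs) in Control and 52.7 CPM (150 UMIs) in AngII+HS, a log2 ratio of 1.93 (0.05 to 4.98). With the subclusters weighted as in Control, the log2 ratio of *Pdgfc* in macrophages was -0.10. A subcluster found in 1 library may be particular to that library.

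Fibroblast subclusters carried the receptor difference unequally. *Pdgfra* was lower in AngII+HS in the subcluster led by *Sfrp4* and *C4b* (421 to 260 CPM), in activated-like fibroblasts led by *Thbs2* and *Col11a1* (448 to 197 CPM, a log2 ratio of -1.19) and in 2 unnamed subclusters that shared the leading genes *Hhip* and *Rbp4* (525 to 269 and 537 to 265 CPM). In Pi16-like fibroblasts, an adventitial progenitor-type state, *Pdgfra* was 329 CPM in Control (683 UMIs) and 317 CPM in AngII+HS (434 UMIs), a log2 ratio of -0.06 (-0.23 to 0.12). *Pdgfrb* was likewise nearest between the libraries in Pi16-like fibroblasts, at 89.7 and 104 CPM, a log2 ratio of 0.22 (-0.11 to 0.54). In the *Sfrp4*-led subcluster it was 97.3 and 173 CPM, a log2 ratio of 0.83 (0.61 to 1.05). In activated-like fibroblasts it was 197 and 288 CPM, and in the *Hhip* subclusters 278 and 361 CPM and 242 and 352 CPM. A subcluster led by the mural genes *Rgs5* and *Notch3*, with 46 Control and 424 AngII+HS cells, had the lowest *Pdgfra*, at 221 and 126 CPM, and held 232 CPM of *Pdgfrb* in Control and 545 CPM in AngII+HS, the highest of the AngII+HS fibroblast subclusters. Over all fibroblasts, *Rgs5* stood at 160 CPM in Control and 582 CPM in AngII+HS and the fibroblast marker list at 22153 and 51147 CPM, and the part of either in the receptor ratios was not tested. Within that list the collagens *Col1a1* (2902 and 14253.5 CPM), *Col3a1* and *Col1a2*, and *Lum*, were higher in AngII+HS. *Dcn* (9797 and 8563 CPM) and *Serpinf1* (865 and 853 CPM) were not. In the *Rgs5*-led subcluster the VSMC marker list scored highest, and its part in the ratios over all fibroblasts was not tested. With the subclusters weighted as in Control, the log2 ratio of *Pdgfra* was -0.73 and that of *Pdgfrb* 0.51.

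*Pdgfa* was higher in AngII+HS in 4 fibroblast subclusters beyond the counting interval, and was highest in the mural-gene-led cells, at 120 and 197 CPM. An activated-like subcluster led by *Mmp13*, with 378 AngII+HS cells and no Control cell, held 156 CPM. With the subclusters weighted as in Control, which left out the *Mmp13*-led cells, the log2 ratio of *Pdgfa* in fibroblasts was 0.85. *Pdgfc*, level over all fibroblasts, differed in opposite directions among them: it was 59.8 and 15.3 CPM in Pi16-like fibroblasts, a log2 ratio of -1.96 (-2.71 to -1.29), and 7.17 and 24.9 CPM in activated-like fibroblasts, a log2 ratio of 1.79 (0.71 to 3.13). With the subclusters weighted as in Control, the log2 ratio over fibroblasts was -0.74, in place of 0.03, and with double the number of doublets removed it was -0.41. Other choices moved it upward: 0.60 with equal weight per cell, 0.49 after thinning, 0.35 without doublet removal and 0.26 with TMM factors. Its direction was therefore not resolved.

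**Figure D5:**
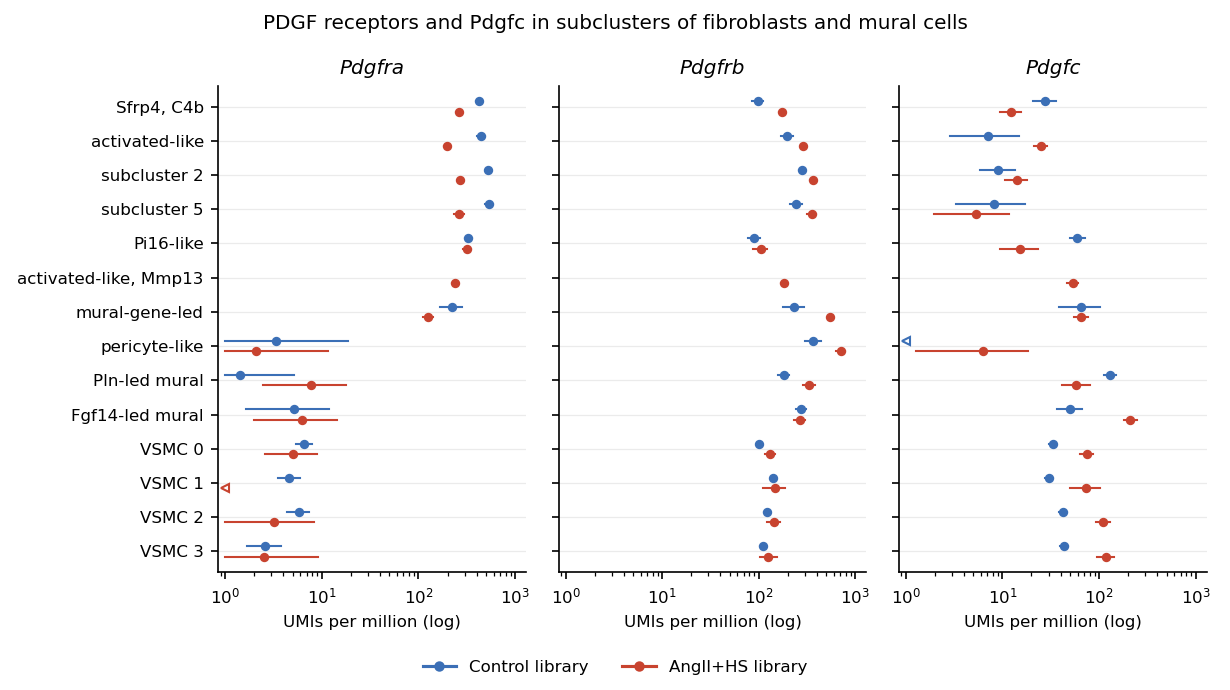
Level of *Pdgfra*, *Pdgfrb* and *Pdgfc* in CPM (log axis) in subclusters of fibroblasts (upper 7) and mural cells (lower 7), Control library in blue and AngII+HS library in red, with 95% Poisson intervals. Values below 1 are drawn at 1 and open triangles mark 0 UMIs. *Pdgfra* was lower in AngII+HS in 5 of the 6 plotted fibroblast subclusters with cells of both libraries and was 329 and 317 in the Pi16-like subcluster.

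In mural cells, *Pdgfc* was higher in AngII+HS in each of the 4 VSMC subclusters, from 33.1 to 74.4, from 30.4 to 72.9, from 42.5 to 111 and from 43.6 to 117 CPM. It reached 212 CPM from 49.9 CPM in a subcluster led by *Fgf14* (304 Control and 310 AngII+HS cells), for which the fibroblast list scored highest. Mural subclusters came from clustering the VSMCs and the unnamed *Pln*-led mural cluster again, together. The *Pln*-led subcluster, with 154 Control and 127 AngII+HS cells, is therefore not the same set as that cluster, with 175 and 216 cells. Their overlap was not counted, so values of the 2 sets are not separate findings. In the *Pln*-led subcluster *Pdgfc* went the other way, from 130 to 58.1 CPM, a log2 ratio of -1.16 (-1.71 to -0.65). *Pdgfd* was lower in the same 4 VSMC subclusters, which held 214 to 273 CPM in Control and 126 to 183 CPM in AngII+HS, but not in the *Fgf14*-led cells, at 443 and 473 CPM. It was also lower in pericyte-like cells, at 247 CPM (74 UMIs) and 74.9 CPM (36 UMIs), a log2 ratio of -1.72 (-2.34 to -1.13). *Pdgfa* was highest in the *Pln*-led subcluster, at 491 and 694 CPM. *Pdgfrb* was highest in pericyte-like cells, which were 43 Control and 95 AngII+HS cells, at 367 CPM (110 UMIs) and 706 CPM (339 UMIs), a log2 ratio of 0.94 (0.63 to 1.27). The pericyte potassium channel gene *Kcnj8* stood at 90.0 and 125 CPM in these cells. In the *Pln*-led subcluster *Pdgfrb* was 182 and 332 CPM, a log2 ratio of 0.87 (0.60 to 1.14). The part of a differing mix of such cells in the ratio of the unnamed *Pln*-led cluster was not tested.

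Other genes of the pathway were read from a list of 29, all with at least 20 UMIs in fibroblasts, VSMCs, VECs and macrophages. *Sparc*, a matrix protein that binds PDGF-B, was at least 2-fold higher in AngII+HS in the sums of all 4 types: from 3487 to 9239 CPM in fibroblasts, from 1642 to 3861 CPM in VSMCs, from 1010 to 2239 CPM in VECs and from 50.6 to 129 CPM in macrophages. Genes of this list were not set beside a T and B cell level. The part of fibroblast RNA in the low macrophage level of *Sparc* was not tested. Among the 5 proteases, *Plat*, tissue plasminogen activator and an activator of PDGF-C, was 40.7 CPM in Control VSMCs and 121 CPM in AngII+HS VSMCs, a log2 ratio of 1.57 (1.45 to 1.68). This gene and *Pdgfc* were thus both higher in the summed VSMCs, and whether single cells held both was not tested. The *Fgf14*-led mural subcluster, in which the fibroblast list scored highest, had 304 Control and 310 AngII+HS cells, beside 5455 and 888 VSMCs. Its part, and that of fibroblast RNA, in the VSMC level of *Plat* was not tested. *Plat* was 250 and 323 CPM in fibroblasts and 69.5 and 90.2 CPM in VECs. *Plau*, urokinase, an activator of PDGF-D, was 4.39 and 11.8 CPM in VECs and 215 and 95.5 CPM in macrophages. *St14*, matriptase, did not exceed 6.93 CPM in any of the 4 types and was the 1 gene past 2-fold lower in fibroblasts and in VSMCs. *Furin* and *Pcsk5*, proprotein convertases, were 52.1 and 58.3 CPM and 252 and 213 CPM in fibroblasts.

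Past 2-fold, 1 of the 29 was higher and 1 lower in fibroblasts, where 7.86% and 8.53% of all genes were. In VSMCs 2 were higher and 1 lower, beside 6.21% and 11.6% of all genes, and in VECs 4 were higher and 1 lower, beside 8.23% and 5.99%. In macrophages 4 were higher and 5 lower, beside 11.7% and 17.7%. The median log2 ratio of the list was -0.24 in fibroblasts, -0.02 in VSMCs, 0.17 in VECs and -0.13 in macrophages, beside -0.15, -0.06, 0.05 and -0.12 over all genes. Of the 8 negative regulators, *Ptprj*, a phosphatase that acts on PDGF receptors, was lower in AngII+HS in VECs, from 968 to 243 CPM, and in macrophages, from 2173 to 935 CPM. *Cblb*, a ubiquitin ligase of receptor tyrosine kinases, was higher in VECs, from 38.3 to 126 CPM. Of the 12 adaptors and effectors, *Src* passed 2-fold in VECs, on 6 and 29 UMIs, and no other did in any of the 4 types. In macrophages *Lrp1*, a co-receptor for PDGF signalling, was 205 CPM in Control and 484 CPM in AngII+HS, and *Spry1*, *Spry4*, *Pdgfrl* and *St14* passed 2-fold on at most 54 UMIs in either library, as did *Pcsk5*, at 9.36 and 2.29 CPM.

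The pattern of each member was set beside all other genes with at least 500 UMIs, over 20 sums of a cell type in a library (11 types). Genes most like *Pdgfra* were *Has1*, *Wnt5a* and *Gfpt2*, with Pearson's r between 0.929 and 0.931 on log2(CPM + 1). Those most like *Pdgfrb* were *Ddr2*, *Abcc9* and *Mfap5* (r = 0.938 to 0.946), and those most like *Pdgfd* were *Efna5*, *Smoc1* and *Pde3a* (0.939 to 0.956). *Mertk*, *Hbegf* and *Dst* were nearest to *Pdgfa* (0.954 to 0.959), *Slc8a2*, *Zfhx3* and *Fam110b* to *Pdgfc* (0.833 to 0.884), and *Gltp*, *Chn2* and *Plxnd1* to *Pdgfb* (0.827 to 0.886). Among the members, the highest r was 0.76, between *Pdgfd* and *Pdgfrb*, and the lowest was -0.41, between *Pdgfb* and *Pdgfra*. These are correlations across sums that share libraries and depth, given as a description.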

How the data were processed

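The abdominal aortas of both groups were measured by droplet single-cell RNA sequencing, with 1 library per group. The authors made the deposited counts with Cell Ranger, as raw UMI counts for each gene in each cell barcode, without normalization. The matrix headers name version 8.0.1, the study's methods name an earlier version on GRCm39, and the submitters' processing notes name mm10. All 6 member identifiers are in the GENCODE M39 annotation of GRCm39. The barcode lists were crossed in length: each had the entry number of the other library's matrix (11448 and 24804), so matrices were taken by their recorded sample and the lists served only to count shared barcodes (67). An exchange of the matrices would reverse every direction. As labelled, neutrophils were 0.964% of Control and 23.6% of AngII+HS cells, macrophages 4.77% and 22.3%, and VSMCs 53.1% and 4.50%. For these libraries the paper likewise reports a smaller proportion of VSMCs and larger proportions of macrophages and neutrophils in AngII+HS.

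Barcodes below 500 UMIs or 200 genes, or with 20% or more of UMIs from mitochondrial genes, were discarded. Scrublet (scanpy 1.11.5) ranked doublets, and 1019 Control and 4826 AngII+HS cells were removed, at 0.8% per 1000 cells. The libraries were integrated in Seurat 5.3.0 on 2000 variable genes, without the 6 members, and 30 components, and clustered at resolution 0.8. VECs, mural cells, fibroblasts and macrophages were clustered again with 20 components at resolution 0.4. A cluster took the name of the marker list that scored highest (mean log2 ratio with 5 CPM added) when 3 or more of its markers reached 10% of the cells. It stayed unnamed when the runner-up was within 0.25, when its 10 leading genes held as many markers of another type, or when depth was low and none of them was a marker. A subcluster also stayed unnamed when the list of another cell type scored highest. This rule was settled after the clusters had been seen, and the macrophage and monocyte lists were then joined.

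Sums of UMIs were taken over each cell type within a library. Levels carry exact Poisson intervals, shares exact Clopper-Pearson intervals and log2 ratios exact conditional binomial intervals. UMIs of cells in a pool are not independent replicates, so intervals cover counting error only. The ratio step was run on simulated counts of known fold, drawn with counting error alone in sums the size of those of VECs. That run cannot speak to variation between cells, mice or libraries. The leading type of a member had the highest CPM over both libraries, among named types with at least 50 cells in each. Named genes were the 6 members, pathway genes past 2-fold with at least 20 UMIs, the 5 processing proteases and the 3 genes most correlated with each member. Leading genes of subclusters were named in addition. The members, lists and rules were chosen with earlier results of these data known. Alternatives included TMM factors of edgeR 4.0.16, and R 4.3.3 was used.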

Additional observations from a re-analysis of the deposited data

Results flagged for a closer look

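A pair of ligands differed in opposite directions between cell types, and neither difference was tested, as each condition was 1 library. *Pdgfa* was higher in AngII+HS in fibroblasts, at a log2 ratio of 1.38, and lower in macrophages, at -0.66, a gap of 2.05 between the types. At a clustering resolution of 0.4, at which 40 Control and 2078 AngII+HS cells were named macrophages, the macrophage ratio of *Pdgfa* was 1.95. With double the number of doublets removed it was -0.10 (interval -0.27 to 0.07), so that the opposite direction of *Pdgfa* was not resolved there. In that setting 480 Control and 1836 AngII+HS cells were named macrophages. *Pdgfc* was higher in VSMCs, at 1.50, and lower in macrophages, at -1.40, a gap of 2.90. With the macrophage subclusters weighted as in Control, which left out the Arg1-like cells, the macrophage ratio of *Pdgfc* was -0.10. With double the number of doublets removed it was -0.65.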

How the results depend on the processing

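No paired analysis was possible because each condition was 1 library. Of 84 alternative values of the 6 ratios in leading types, 68 stayed within the counting interval of the reported value and 16 left it. Some of the 68 equalled the reported value, as the VECs and Schwann cells were alike at resolutions 0.4, 0.8 and 1.2. Only *Pdgfc* in VSMCs was past 2-fold, and it kept its sign. *Pdgfd* in VECs kept its sign in 13 of 14 alternatives and *Pdgfa* in Schwann cells in 10 of 12. The other ratios kept theirs throughout. With equal weight per cell the log2 ratio was 0.55 for *Pdgfb* in VECs, 1.81 for *Pdgfc* in VSMCs and 0.69 for *Pdgfrb* in fibroblasts. Thinned to 1000 UMIs, it was 1.87 for *Pdgfc*, -0.53 for *Pdgfd* in VECs, -1.06 for *Pdgfra* in fibroblasts and 0.74 for *Pdgfrb*. TMM scaling moved all genes of fibroblasts by 0.23 and of macrophages by 0.33, and gave -0.70 for *Pdgfra* and 0.79 for *Pdgfrb*. Without doublet removal, *Pdgfd* was -0.57 and *Pdgfra* -0.99. Some choices were added after the data were seen. Weighting subclusters as in Control gave 0.47 for *Pdgfb*, 1.31 for *Pdgfc*, 0.14 for *Pdgfd* and -0.73 for *Pdgfra*. This weighting used only subclusters with at least 20 cells in each library. Leaving out subclusters unnamed only because the list of another type scored highest gave 1.30 for *Pdgfc*. The fibroblast subcluster led by *Rgs5* and *Notch3* was kept there, although the VSMC marker list scored highest in it. It had been left unnamed first because of its leading genes. It was 46 of 1953 Control and 424 of 4242 AngII+HS fibroblasts, and held 64 of 1627 and 1289 of 7148 fibroblast *Pdgfrb* UMIs. Fibroblast ratios without it were not computed. The cause of these shifts was not tested. *Pdgfa* in Schwann cells ranged from -0.08 to 0.26.

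The difference in UMI shares, AngII+HS minus Control in percentage points, kept its sign throughout. Without doublet removal it was 31.7 for *Pdgfa*, 31.2 for *Pdgfc* and 2.31 for *Pdgfra* in fibroblasts and 28.1 for *Pdgfb* in macrophages, beside 25.8, 25.3, 8.14 and 36.5 as reported. With double the number of doublets removed it was 16.6 for *Pdgfa*, 41.95 for *Pdgfb*, 10.7 for *Pdgfc*, 29.3 for *Pdgfd*, 1.89 for *Pdgfra* and 53.9 for *Pdgfrb*. That setting also changed which cells were named. It left 480 Control and 1836 AngII+HS macrophages, 2139 and 437 VSMCs, and 2558 and 2989 fibroblasts. The stricter cell filter gave 35.6 for *Pdgfd*, 4.12 for *Pdgfra* and 59.1 for *Pdgfrb*, and merging without integration 42.7 for *Pdgfb*, 34.9 for *Pdgfd*, 5.40 for *Pdgfra* and 58.8 for *Pdgfrb*. At resolution 0.4 it was 1.85 for *Pdgfb*, 3.99 for *Pdgfra* and 58.2 for *Pdgfrb*, and only 40 Control and 2078 AngII+HS cells were then named macrophages. The reported *Pdgfd* and *Pdgfrb* differences were 33.4 and 56.6. The reported *Pdgfra* difference leaves out the unnamed low-depth cluster with fibroblast markers, which held 8.09% of *Pdgfra* UMIs in Control and 3.89% in AngII+HS. Counts of pathway genes past 2-fold stayed within 1.5 times, at 2 to 3 in fibroblasts, 3 in VSMCs, 5 to 7 in VECs and 6 to 9 in macrophages. Depth limits the detection of low members in single cells.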

Other observations

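*Pdgfb* was also detected in small unnamed clusters of the AngII+HS library. A cycling cluster led by *Top2a*, with 112 AngII+HS cells and 9 Control cells, held 226 CPM of *Pdgfb* (interval 199 to 256, 248 UMIs) in AngII+HS and 123 CPM of *Pdgfa*. The summed macrophage list stood at 4779 CPM in its AngII+HS cells. A cluster led by *Hbb-bs*, with 112 AngII+HS cells, held 150 CPM of *Pdgfb* (117 to 189) in AngII+HS, while none of its 39 Control cells had a *Pdgfb* UMI, which allows a share of cells with a UMI of up to 7.69% at a median of 2282 UMIs per cell and sets no limit on cells that express the gene. DCs of the AngII+HS library held 71.1 CPM (61.3 to 82.1, 518 cells).

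Neutrophils of the AngII+HS library held 16.2 CPM of *Pdgfrb* (13.2 to 19.7) beside 9.34 CPM in T and B cells. Their fibroblast marker list was 1500 CPM, beside 880 CPM in T cells and 962 CPM in B cells, and its part in the *Pdgfrb* level was not tested. Plasma cells, which were 165 AngII+HS cells and no Control cell, held at most 9.10 CPM of any member. Neurons, with 5 Control and 42 AngII+HS cells, held 91.4 CPM of *Pdgfa* in AngII+HS (69.4 to 118).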
